A study of Drosophila melanogaster with 6 samples.

Results

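The heads of adult Drosophila melanogaster were described through the 3 input libraries of a study that also sequenced RNA precipitated with the protein Zn72D. These 3 of the 6 libraries of the series were chosen by their titles, which call them inputs 1 to 3, so no measured value entered the choice. Every library came from flies of the genotype y1 w*; P{PTT-GA}Zn72D[CA07703], the stock BDSC50830, in which a protein trap inserts GFP into Zn72D, so the head RNA of flies without the trap was not analysed here. Males and females were pooled, the flies were kept at 25 C in 12 hours of light and 12 hours of dark, and their exact age is not given in the sources used here. An input is a small part of the head lysate taken before precipitation, given as 4% in the extraction protocol and as 5% in the design text. Nothing in the labels says whether the numbers 1 to 3 mark separate collections of flies, so the spread over them may be partly technical.

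The fly head holds the compound eyes, the brain, glia, the fat body, the muscles of the mouthparts, the cuticle and the start of the gut, and its RNA is a mixture of all of them. Photoreceptors make up a large part of it and carry a signalling cascade in which rhodopsin, a G protein, a phospholipase and the TRP channels turn light into an electrical response, while arrestins end the response. In a pooled sample, fewer cells of a type and less RNA per cell cannot be told apart. Levels are given per length throughout, as TPM after the genes named as rRNA were taken out and the rest was rescaled to a sum of 1000000 in each library. A level of 10 therefore means 10 of every 1000000 transcripts outside rRNA, as far as TPM estimates them. The length by which TPM divides is the effective length, which is shorter than the gene by about a fragment. The levels of short RNAs depend strongly on it.

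The inputs held 34401553, 35772972 and 38331703 expected counts, of which rRNA took 79.9% ± 2.67 (SD, n = 3). Outside rRNA 5864723, 7852065 and 8182107 counts remained in inputs 1, 2 and 3. With 3 counts as the floor, a gene at 0 could have reached 0.512, 0.382 and 0.367 CPM, counts scaled to a sum of 1000000 outside rRNA, and this limit covers counting error only. Input 3 stood apart from the other inputs, lower in genes of the testis, male glands, gut, oenocytes and flight muscle and higher in yolk protein, cuticle and eye pigment genes, and the values of genes and lists are therefore given for each library, always in the order 1, 2 and 3.

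On the scale per length, most of the transcripts outside rRNA, as TPM estimates them, were not mRNA. The 7SL RNA, the RNA core of the signal recognition particle that guides secreted proteins to the endoplasmic reticulum, took 53.0% of the pool in input 1, 52.2% in input 2 and 47.3% in input 3. Its level was listed equally for both of its genes, 7SLRNA:CR32864 (3R, 6822500 to 6822798) and 7SLRNA:CR42652 (3R, 6820131 to 6820429), at 264987, 260860 and 236304 each, and reads of these near-identical copies cannot be assigned to a single gene. Protein-coding genes took 34.6%, 36.8% and 37.9% of the pool, a mean of 36.4% ± 1.68. Before division by effective length the order was the reverse. Of the counts outside rRNA, 89.2% ± 0.592 came from protein-coding genes and 7.84% ± 0.601 from 7SL RNA. The 7SL genes are 299 bases long, against mean fragments of 172, 171 and 162 bases in inputs 1, 2 and 3. Their effective length is therefore far shorter, and the part of this correction in the 7SL share was not tested.

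**Figure D1:**
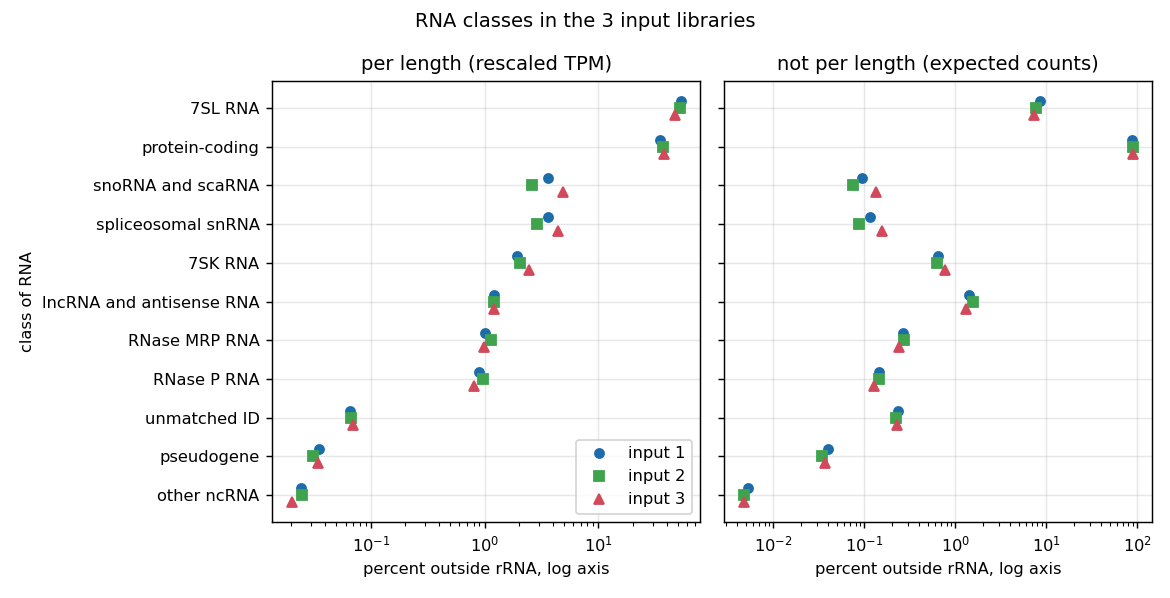
Share of each class of RNA outside rRNA in inputs 1, 2 and 3, per length on the left and as plain counts on the right, both on log axes in percent. The 7SL RNA lies at 47.3% to 53.0% of the pool on the left and under protein-coding genes on the right, and the points of the 3 libraries lie close together for most classes.

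Other stable noncoding RNAs made up most of the rest. The 7SK RNA, which holds the elongation factor P-TEFb inactive, was at 19445, 20558 and 24496. RNase MRP RNA and RNase P RNA, the catalytic RNAs that trim pre-rRNA and pre-tRNA, were at 10140, 11274 and 9835 and at 8954, 9643 and 8152. Small nucleolar and Cajal body RNAs, which guide chemical modification of other RNAs, took 3.71% ± 1.12 of the pool, and spliceosomal snRNAs 3.63% ± 0.763.

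Among the spliceosomal RNAs, U1 summed over its genes was at 18470, 15800 and 20570 and U2 at 11910, 7937 and 15320. U5 was at 0, 17.09 and 13.33 and U6 at 81.94, 57.76 and 403.3, although both are core parts of every major spliceosome. The mean length was 124 bases for U5 and 107 for U6 genes, against a mean fragment of 172, 171 and 162 bases in inputs 1, 2 and 3. The more abundant U4 and U1 genes, at 144 and 164 bases, were shorter than the fragments of inputs 1 and 2 as well, and all 290 tRNA genes were listed at a TPM of 0. The part of length in these levels was not tested.

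Long noncoding and antisense RNAs took 1.21% ± 0.0112 of the pool, with nearly the same share in the 3 libraries. The most abundant was lncRNA:noe (3L, 17400272 to 17401348) at 3124, 3988 and 3449. The next were lncRNA:mimi at 2605, 3440 and 2153 and lncRNA:CR34335 at 2858, 1330 and 3605. The range of lncRNA:CR34335, a gene of 249 bases, took in that of lncRNA:mimi and overlapped that of lncRNA:noe, so the order of the 3 is not settled by these libraries. lncRNA:roX1, a noncoding RNA of the male dosage compensation complex, was at 296, 338 and 290.

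Among mRNAs, ninaE stood clear of all others. It encodes the main rhodopsin, the light receptor of the outer photoreceptors (3R, 19886255 to 19888206, minus strand). Its level was 7310, 8190 and 6006, a mean of 7168 ± 1100 (SD, n = 3), from 74539, 102874 and 76893 expected counts. The highest value of the gene ranked next, RpL41, was 3007, so the ranges did not overlap. Alone, ninaE made up 1.97% ± 0.341 of all mRNA.

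Below it, neighbours in rank were not separated by range. Of the 20 most abundant mRNAs, 19 had a range that overlapped that of the next in rank. RpL41, a very small protein of the large ribosomal subunit, was at 2542, 2522 and 3007. eEF1alpha1, the elongation factor that brings aminoacyl-tRNA to the ribosome, was at 2316, 2537 and 2684. Arr2, the main arrestin that ends the light response, was at 2353, 2463 and 2519, and Ggamma30A, the gamma subunit of the G protein coupled to rhodopsin, at 1930, 1984 and 2394. Genes farther apart in rank could be separated: the lowest value of RpL41, 2522, lay above the highest of Ggamma30A, 2394. For none of these 4 mRNAs was a library 2-fold apart from the others.

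The 20 genes held 8 ribosomal proteins and 3 genes of phototransduction. Besides RpL41, the ribosomal proteins were RpS25 at 1491, 1606 and 1659, RpL29 at 1430, 1423 and 1517, RpL23 at 1326, 1423 and 1357, RpS30 at 1254, 1379 and 1294, RpLP1 at 1171, 1261 and 1421, RpS23 at 1212, 1242 and 1350 and RpL36 at 1196, 1244 and 1319. RpL23 lies opposite inaD and overlaps it only at the ends of the pair, so only reads from there could be confused where strand was not used. sesB, the ADP/ATP carrier of mitochondria, was at 1635, 1552 and 1834, and its exons overlap those of Ant2, so its reads may be shared with that gene. ATPsynC, the membrane ring subunit of ATP synthase, was at 1313, 1444 and 1580, and eEF2, which moves the ribosome along the mRNA, at 1229, 1301 and 1529. Cam, the calcium sensor calmodulin, was at 1140, 1095 and 1630, and Adh, the alcohol dehydrogenase of the fat body, at 1076, 1134 and 1638.

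The yolk protein mRNAs Yp1 and Yp2, made in the female fat body, and the muscle actin mRNA Act57B were the members whose rank depended most on the library. Yp1 was at 1227, 1227 and 3066 and ranked 13, 16 and 2 in inputs 1, 2 and 3. Yp2 was at 902, 916 and 2201 and Act57B at 864, 980 and 1667. Input 3 was the high library for each of these 3 genes.

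**Figure D2:**
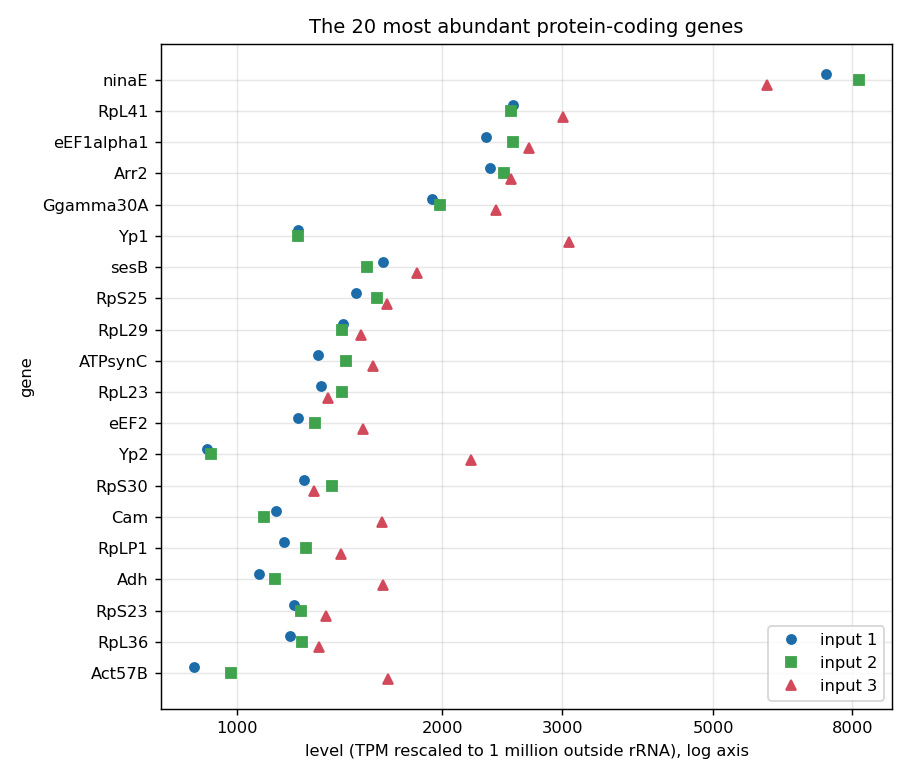
Level of the 20 most abundant protein-coding genes in inputs 1, 2 and 3, as TPM rescaled to a sum of 1000000 outside rRNA on a log axis, ordered by the mean. ninaE lies alone on the right at 6006 to 8190, and the points of input 3 lie to the right of the others for Yp1, Yp2 and Act57B.

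Among the 100 most abundant mRNAs, 62 encoded cytoplasmic ribosomal proteins, 4 belonged to phototransduction, 4 to muscle and 2 to oxidative phosphorylation, and 14 were in none of the gene lists used. Together they made up 28.3% ± 0.927 of all mRNA and 10.3% ± 0.757 of the pool with noncoding RNA, and 90 of them were in the top 100 of each library. Without input 3 the share of the pool was 9.93%. Only 1 of the 100 still carried a CG number in place of a name, CG12158, at 660, 815 and 739.

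Most mRNAs were far rarer. Of 13861 protein-coding genes, 11660 (84.1%) were above 0 in all 3 libraries, 9448 (68.2%) at 1 or more, 4801 (34.6%) at 10 or more, 463 at 100 or more and 22 at 1000 or more. Without input 3, 5254 genes reached 10. Genes known only by a CG number made up 50.3% of the 5145 genes with a mean level of 1 to 10, 30.9% of the 4901 genes at 10 to 100, 13.0% of the 509 at 100 to 1000 and 0 of the 30 at 1000 or more.

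Photoreceptor genes formed the most abundant cell type list. Its 33 genes were all at 1 or more in every library and summed to 16525, 18085 and 17101. The minor rhodopsins lay far below ninaE: Rh4 was at 225, 257 and 239, Rh6 at 153, 181 and 147 and Rh3 at 137, 162 and 149. Rh4 lay above Rh6 and Rh3 in every library, while the ranges of Rh6 and Rh3 overlapped. Rh2, the rhodopsin of the ocelli, was at 50.8, 60.7 and 54.6, Rh5 at 19.5, 16.8 and 23.6 and Rh7 at 8.41, 9.58 and 9.5.

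Downstream of rhodopsin, the light-gated channels trp and trpl were at 418, 464 and 546 and at 324, 355 and 392. norpA, the phospholipase C of the cascade, was at 270, 290 and 378, and ninaC, a myosin kinase of the rhabdomere, at 529, 561 and 804. The lens protein retinin was at 627, 673 and 867, and the lens proteins Crys and Cpr72Ec were at 11.4, 15.7 and 37.7 and at 11, 8.47 and 14.1. The white gene w, an ABC transporter of pigment precursors for which the flies carry a mutant allele, was at 8.93, 13.3 and 12.1, a low level like that of v, at 12.8, 13.5 and 14.9.

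The 20 neuronal genes were all detected and summed to 2986, 3172 and 3669. cpx, the complexin that clamps vesicle fusion, was at 579, 586 and 748, nSyb, the vesicle SNARE of neurons, at 365, 396 and 427, and the RNA-binding protein Rbp9 at 309, 327 and 339. elav, the usual neuronal marker, was lower, at 49.3, 55.8 and 55.2. None of the 20 was 2-fold apart in any library.

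Of the genes that make or carry transmitters, Gad1, which makes GABA, was at 139, 163 and 200, VGlut, the glutamate transporter of vesicles, at 88, 100 and 99.3, and Vmat, which loads monoamines, at 79, 106 and 99.7. VAChT, which loads acetylcholine, was at 63.8, 75.7 and 75.6, and SerT, the serotonin transporter, at 9.68, 10.6 and 11.2. ple, the tyrosine hydroxylase of dopamine synthesis that cuticle-forming cells also use, was at 21, 28.8 and 58.2, high in input 3. Trh was not matched and is not analysed here.

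Glial genes summed to 1192, 1218 and 1586. Gs2, a glutamine synthetase, was at 475, 448 and 716 and nrv2, a sodium pump subunit, at 183, 193 and 212. Eaat2, a membrane transporter of excitatory amino acids, was at 94.5, 109 and 112. The glial transcription factor repo was at 28.2, 33.2 and 32.7. Its early activator gcm, which acts in the embryo, was near 0 at 0.346, 0.337 and 0.277.

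Clock genes were measured at middle levels and all 13 were at 1 or more. tim was at 81.4, 62.6 and 121 and per, its partner in the repressor complex, at 40, 39.7 and 46.1. Clk, which activates both, was at 11.4, 17.2 and 11.3, and its partner cyc at 21.4, 20.5 and 20.1. Pdp1 and vri, the factors of the second clock loop, were at 128, 115 and 157 and at 88.1, 79 and 101, and cwo, a repressor, at 27.4, 28.7 and 31.2. The kinases sgg and dco were at 121, 129 and 144 and at 43.5, 45.6 and 48.5. The light sensor cry was at 43.4, 51.8 and 54.2 and jet, which acts with it, at 6.11, 5.39 and 6.78. The clock neuropeptide Pdf was at 22.9, 27.7 and 24 and its receptor Pdfr at 15.8, 17.9 and 20.9. The hour at which heads were collected is not given in the sources used here, and tim and per are known to cycle.

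Peptide mRNAs spanned a wide range. Nplp3 and Nplp2, 2 peptide precursor genes, were at 468, 540 and 1163 and at 500, 417 and 882. Ms, myosuppressin, was at 42.1, 53.7 and 40.3, and RYa had 0 counts in all 3 libraries. Of the immune peptides, the bomanins, short secreted effectors of the Toll pathway, were the most abundant: BomS3 was at 807, 848 and 1063, BomS2 at 557, 415 and 689 and BomS5 at 251, 155 and 190. Dro, the antibacterial peptide drosocin, was at 68.3, 84.4 and 36.5. Haemocyte genes, markers of the blood cells, were rare and summed to 67.3, 71.1 and 73.3, led by the scavenger receptor crq at 29.3, 29.7 and 32.9, Pxn at 15, 16.7 and 14.7 and the transcription factor srp at 6.97, 7.12 and 9.18.

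Heat shock and chaperone genes spanned a wide range. Hsc70-4, a chaperone present in all cells, was at 613, 679 and 625, Hsp83, the fly HSP90, at 329, 360 and 273 and lncRNA:Hsromega, a noncoding RNA induced by heat, at 178, 231 and 202. DnaJ-1 was at 76.6, 78.2 and 72.3. Hsp22 was at 3.86, 4.38 and 3.46 and Hsp23 at 7.43, 9.53 and 9.08. The near-identical Hsp70 copies cannot be separated with certainty: Hsp70Aa and Hsp70Ba were listed at 0 and Hsp70Ab at 6.34, 7.75 and 7.28.

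The label head was checked against markers of its parts, and those of the olfactory hairs of the antenna were at or near 0. Orco, the coreceptor that most odorant receptors need, was at 0.807, 0.626 and 1.15, from 10, 10 and 18 expected counts. The odorant-binding proteins of antennal hairs were as low: lush was at 0.173, 0.578 and 0.415, Obp83a at 0.23, 0.193 and 0.599 and Obp83b at 1.15, 0 and 0.599. Ir8a, a5 and Obp59a had 0 counts in all 3 libraries. Snmp1, a membrane protein of pheromone-sensing hairs that is also made elsewhere, was somewhat higher at 4.67, 3.61 and 4.33.

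The odorant-binding list still summed to 1027, 1059 and 1391, with 5 other members abundant. Obp44a was at 351, 370 and 502, Obp99c at 232, 213 and 310, and Obp19d at 208, 227 and 194. Obp56d was at 137, 154 and 171 and Obp57c at 57.9, 56 and 79. Of the 25 genes of this list 11 were at 1 or more in all libraries, and a cause for the low values of the others was not tested.

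Most housekeeping groups had like sums in the 3 libraries, while the proteasome genes summed to more in input 3. The 93 cytoplasmic ribosomal protein genes summed to 63165, 66355 and 70037, a mean of 6.65% of the pool. Some paralogs lay far below the median member, which was at 744: RpS5b was at 3.98, 6.11 and 0.415, RpS19b at 3.63, 3.23 and 0.461 and RpL22-like at 2.36, 6.59 and 0.922. In flies, RpS5b, RpS19b and RpL22-like are paralogs used mainly in the germ line, and all 3 were lowest in input 3. Another paralog, RpL34a, was at 127, 139 and 155.

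Oxidative phosphorylation genes encoded in the nucleus, 87 in number, summed to 12547, 13224 and 14413. After ATPsynC, the highest were ATPsynbeta, a catalytic subunit of ATP synthase, at 595, 618 and 721 and COX5A, a cytochrome c oxidase subunit, at 450, 465 and 497. V-ATPase genes, which encode a proton pump, summed to 2305, 2433 and 2672, led by Vha16-1 at 597, 644 and 720, Vha55 at 248, 268 and 287 and Vha26 at 226, 217 and 276. Glycolytic genes summed to 3096, 3388 and 3544, led by the aldolase Ald1 at 586, 716 and 647, Gapdh1 at 532, 591 and 579 and the enolase Eno at 483, 503 and 531. Translation factors summed to 6780, 7236 and 7956, with pAbp, the poly(A)-binding protein, at 697, 752 and 827 after eEF1alpha1 and eEF2. The 48 proteasome genes, whose products degrade tagged proteins, summed to 913, 982 and 1230, and the 33 counted had a median log2 difference of 0.43 in input 3, against 0.076 over all genes counted, with none 2-fold apart. Its highest members were Prosalpha7 at 44.7, 51 and 52.2, Rpn8 at 40.3, 41.4 and 53.6 and Prosalpha3 at 41.3, 38.1 and 53. Of the common reference genes, RpL32 was at 808, 863 and 852, Act5C at 446, 513 and 472, and Tbp at 3.86, 4.62 and 4.84. Among the tubulins, alphaTub84B was at 395, 450 and 476, betaTub56D at 186, 228 and 216 and alphaTub84D at 63.6, 69.1 and 63.2, and the ubiquitin gene Ubi-p63E was at 306, 314 and 279. Zn72D itself, from the trapped locus, was at 31.3, 37.7 and 33.9, the editing enzyme Adar at 50.1, 47.1 and 62.8 and the helicase mle at 23.7, 24.7 and 25.4. Exons of Adar overlap those of prage, so part of its reads may belong there.

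Inputs 1 and 2 were close to each other and input 3 was not. Across 11140 genes of all classes outside rRNA with a mean level of 1 or more, Spearman's rho was 0.965 between inputs 1 and 2. It was 0.891 between 1 and 3 and 0.899 between 2 and 3, with genes as the points, which are not replicates. The chi-square of the counts per degree of freedom was 3.38, 19.6 and 22.5 for these pairs, above sampling noise each time, so all 3 were kept as separate samples.

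Precision followed the level. The median coefficient of variation over the 3 libraries was 23.5% for genes at 1 to 10, 10.4% at 10 to 100, 9.04% at 100 to 1000 and 8.12% at 1000 or more. Between inputs 1 and 2 alone it was 13.7%, 7.98%, 6.02% and 3.37% in the same classes, against 14.9%, 5.06%, 1.98% and 1.1% from counting alone. Between inputs 1 and 2, the median coefficients of the genes at 10 or more lay above those from counting alone. These coefficients also include a general shift between the libraries. The median log2 difference of input 2 minus input 1 was 0.12 over 7792 genes. Variation of single genes beyond counting error was not separated from this shift. For the genes at 1 to 10 the comparison with counting alone does not decide for a further reason. The median coefficient of variation of only 2 values tends to fall below the true spread.

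Of 5440 protein-coding genes at a mean level of 10 or more, 4642 (85.3%) lay within 1.5-fold of each other in the 3 libraries and 5032 (92.5%) within 2-fold. Measured as log2(level + 0.5) in input 3 minus the mean of inputs 1 and 2, 4767 of these genes lay within 0.5, 96 were 0.5 to 1.5 lower and 276 were 0.5 to 1.5 higher. A further 280 were 1.5 or more lower and 21 were 1.5 or more higher. Of the 280, 256 lay between 2 and 3.5 lower, so the low genes formed a band of their own and not the edge of the main cloud.

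**Figure D3:**
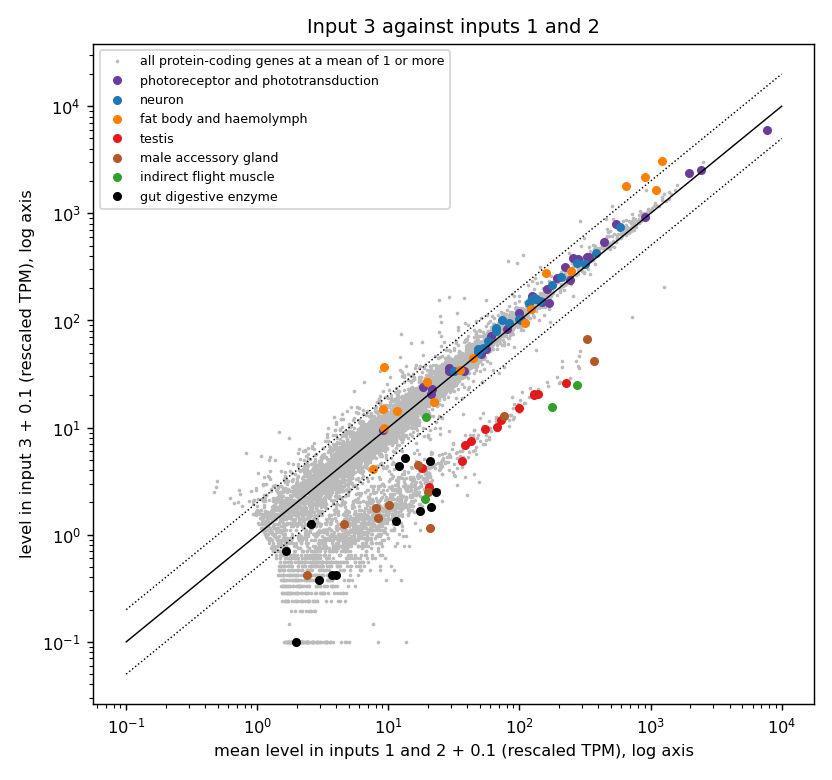
Level of each protein-coding gene in input 3 against its mean in inputs 1 and 2, both with 0.1 added and on log axes, with equal levels as a solid line and 2-fold differences as dotted lines. Testis, accessory gland and flight muscle genes lie in a band below the main cloud, photoreceptor and neuron genes lie on the line, and the yolk protein genes of the fat body list lie above it.

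Over 7792 genes with a mean of 50 or more expected counts, 571 (7.33%) were at least 2-fold lower in input 3 than the mean of the other inputs and 93 (1.19%) at least 2-fold higher. These counts describe 1 library against 2 and carry no test. Inputs 1 and 2 differed from each other 2-fold in 25 genes in all, 10 higher and 15 lower in input 2, a share of 0.321%. Against the mean of the other 2 inputs, of which 1 is then input 3, input 1 had 397 genes (5.09%) higher and 20 (0.257%) lower, and input 2 had 355 (4.56%) higher and 25 (0.321%) lower. The genes low in input 3 summed to 1.8% and 1.75% of the pool in inputs 1 and 2 and to 0.302% in input 3.

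Testis genes were among the low ones. Their list, like every list not marked as chosen after the values were seen, was chosen with earlier results of these data known. The 18 genes of this list summed to 1074 and 1079 in inputs 1 and 2 and to 160 in input 3, a ratio of 6.73. Mst87F, a protein of the sperm tail, was at 224, 228 and 26.1, from 443, 558 and 67 expected counts. Its relative Mst84Dc was at 145, 134 and 20.4, and loopin-1, a protein of sperm mitochondria, at 126, 134 and 20.1. The protamine-like genes ProtA and ProtB, which pack sperm DNA, were at 18.8, 17.1 and 4.06 and at 18.6, 21.8 and 2.67.

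Each of the 18 genes had its lowest level in input 3. No count of 2-fold differences is given for the testis, accessory gland, gut, oenocyte and muscle lists, because some members may have passed the count minimum only through inputs 1 and 2. Nor is one given for the sex-biased, fat body, cuticle and eye pigment lists, where members may have passed it only through input 3. Members named below as 2-fold apart are single genes under the same limit. Over all genes counted, 7.33% were at least 2-fold lower in input 3 and 1.19% at least 2-fold higher. The 5 testis genes that did not reach the minimum were rare in every library: sa was at 1.61, 1.01 and 0.277, can at 1.04, 0.481 and 0.277, mia at 0.403, 0.963 and 0.184, aly at 0.634, 0.915 and 0, and bam at 0.173, 0.144 and 0. These 5 genes act early in spermatogenesis, in dividing germ cells and spermatocytes, whereas the abundant ones encode parts of sperm.

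Genes of the male accessory gland, which makes seminal fluid, had the same direction. Their 12 genes summed to 936, 797 and 136, and the 28 genes of a seminal fluid protein list chosen after the values were seen to 255, 215 and 36.5. Acp95EF was at 452, 294 and 41.6, Acp98AB at 312, 343 and 67.5 and SP, the sex peptide that changes female behaviour after mating, at 72.7, 78.5 and 12.6. Each of the 12 genes had its lowest level in input 3. The expected counts were few, 255, 206 and 33 for Acp95EF, a gene of 243 bases, so these levels are less precise than those of longer genes.

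Products of the ejaculatory duct and bulb split, a list chosen after the values were seen. Dup99B, a relative of sex peptide, was at 204, 280 and 28.9, and EbpII at 73.9, 92.5 and 11.7. EbpIII was at 624, 669 and 775 and did not share the low value of input 3. The symbols EbpI and Peb were not matched and are not analysed here.

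The 16 sex-biased genes summed to 3424, 3417 and 7752. At least 2-fold higher in input 3 were the yolk protein genes Yp1, Yp2 and Yp3, the fat body gene fit and Obp99b. The level of fit was 14.6, 10.6 and 30.1, and that of Obp99b was 8.64, 8.38 and 33.7. Beside lncRNA:roX1, the other RNA of the male complex, lncRNA:roX2, was at 85.9, 52.1 and 93.2. msl-2, whose protein is made in males only, was at 16.6, 16 and 14.9. Of the sex determination genes, Sxl was at 86.3, 89.6 and 108, fru at 39.2, 45 and 43.2 and dsx at 9.68, 9.58 and 10.6. tra and tra2, the splicing regulators upstream of fru and dsx, were at 15.2, 8.42 and 10.7 and at 7.2, 9.34 and 7.52, to at 19.5, 24.8 and 17.4, Cyp4d21 at 19.4, 16 and 21.8 and sxe2 at 15.3, 12.5 and 19.8. None of the genes given after Obp99b was 2-fold apart in input 3.

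Genes of the gut, the oenocytes and the flight muscle were low in input 3 as well. Digestive enzymes of the gut summed to 119, 154 and 24.6: the protease Jon65Aiv was at 18.6, 27.2 and 2.4 and the trypsins alphaTry and betaTry at 15.5, 25.7 and 4.8 and at 17.7, 24.2 and 1.71. Amyrel, Jon66Ci and Jon66Cii had 0 counts in all 3 libraries. Of the oenocyte genes, Cyp4g1, which makes the hydrocarbons of the cuticle, was at 255, 315 and 46.3, the fatty acid synthases FASN2 and FASN3 at 18.6, 23.6 and 5.81 and at 7.43, 7.36 and 2.07, and the list summed to 284, 350 and 56.4.

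The 4 flight muscle genes, a list also chosen after the values were seen, summed to 553, 425 and 54.7. Act88F, the actin of indirect flight muscle, was at 293, 255 and 24.7, fln, its thick filament protein flightin, at 208, 144 and 15.4, and TpnC4, its troponin C, at 27.6, 10.4 and 2.07. The other member, TpnC41C, was at 23.5, 15 and 12.5 and was not 2-fold lower in input 3. Muscle genes as a whole were not low: the 28 genes summed to 8458, 8964 and 10000. Mhc, the muscle myosin heavy chain, was at 690, 755 and 750, Mlc2 at 1112, 1068 and 1247 and the arginine kinase Argk1 at 680, 766 and 852. Act88F, Act79B, fln and TpnC4 were 2-fold lower in input 3, and Act79B was at 210, 215 and 41.5.

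Ovary and egg shell genes were near 0 in every input. The 14 genes summed to 3.75, 4.04 and 2.07, and Cp16, Cp36, Cp38, Vm26Ab and Vm34Ca had 0 counts in all 3 libraries. The highest were osk at 0.691, 1.68 and 0.184, Cp18 at 1.73, 0.481 and 0.231 and Cp15 at 0.403, 0.963 and 0. The symbols nos and vas were not matched and are not analysed here.

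**Figure D4:**
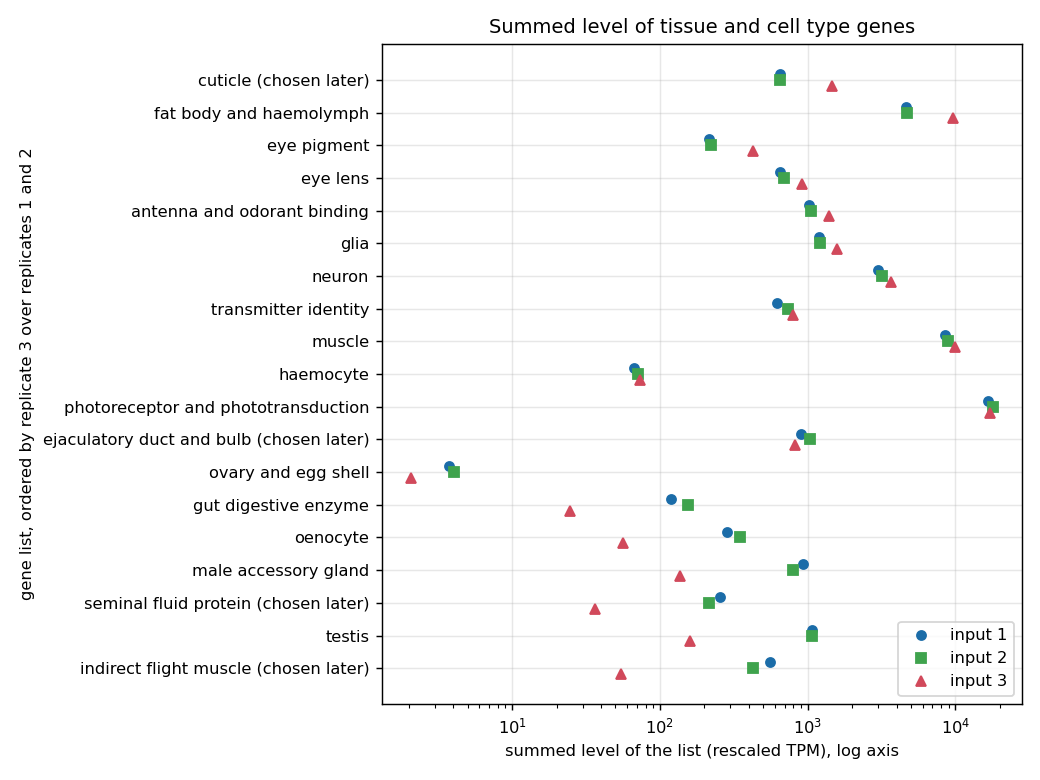
Summed level of each tissue or cell type list in inputs 1, 2 and 3, on a log axis, ordered by the ratio of input 3 to the other inputs. Cuticle, fat body and eye pigment lists have their point for input 3 to the right, photoreceptor and haemocyte lists show nearly equal points, and gut, oenocyte, accessory gland, testis and flight muscle lists lie far lower in input 3.

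Fat body genes were higher in input 3, where their sum was 9687, against 4666 and 4725 in inputs 1 and 2, and the yolk protein genes made up most of the difference. Yp3, the other yolk protein, was at 663, 634 and 1783, and Lsp2, a storage protein of the blood, at 7.43, 11 and 36.7. Yp1, Yp2, Yp3 and Lsp2 were 2-fold higher in input 3. Other fat body genes lay closer together: FASN1, the fatty acid synthase, was at 236, 256 and 289 and Lsd-1, a lipid droplet protein, at 33.8, 36.9 and 34.2.

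Cuticle proteins, a list chosen after the values were seen, summed to 650, 655 and 1456. Acp1, an adult cuticle protein, was at 76.9, 85 and 361, Vajk2 at 37.9, 37.5 and 163 and Vajk3 at 26.6, 21.5 and 154. Acp65Aa ran the other way, at 44.1, 32.4 and 8.35.

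Eye pigment genes summed to 216, 221 and 424. Pu, se and pr, which make the red pteridine pigments, were 2-fold higher in input 3. Pu, the GTP cyclohydrolase at the start of the pathway, was at 81.9, 91.8 and 176, se at 33.1, 34.1 and 87 and pr at 35.4, 31.8 and 81.5. v, which acts in the pathway of brown pigments, was at 12.8, 13.5 and 14.9.

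Over all protein-coding genes with a mean level of 10 or more, the 5 farthest below the other inputs in input 3 were CG43172 at 39.1, 40.1 and 2.26, CG14292 at 45.4, 52.7 and 3, Acp62F at 24.8, 16.4 and 1.06, Mst57Dc at 17.4, 17.3 and 1.01 and msopa at 43.8, 45.4 and 3.6. CG43172 shares exons with neighbouring genes. The farthest above were Vajk3, Obp99a at 12.4, 12.1 and 74.4, CG11458 at 29.6, 28.3 and 164, CG32939 at 0.173, 16.5 and 18.1 and CG5172 at 18.7, 30.3 and 111. CG32939 was low in input 1 and not high in input 3, and the assignment of its reads was uncertain, with a posterior SD of 33% of the count.

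In inputs 1 and 2 the genes farthest from the other inputs were chosen the same way. RpL38, a protein of the large ribosomal subunit, was low in input 2 at 176, 72.4 and 231, and so were Vajk3, CG34291 at 15.3, 3.37 and 19.2, CG40472 at 35, 11.4 and 32.6 with a posterior SD of 14% of the count, and the bomanin BomS4 at 22.1, 9.87 and 36.1. CG32500 was low in input 1 at 4.03, 18.7 and 23.3, with a posterior SD of 28% of the count, and so were CG32939, CG5172, Lsp2 and CG13043, the last at 4.38, 6.4 and 21.8. The highest in input 1 included TpnC4, Acp62F, fln and Acp95EF, and in input 2 CG32939, CG14292 and betaTry. The others were yip7, a serine protease, at 16.3, 28.6 and 2.4, CG16826 at 38.1, 66.8 and 6.87 in input 2, and Sfp70A4, a seminal fluid protein, at 29.8, 20.9 and 1.98 in input 1. These 3 were all low in input 3.

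The cause of these differences of input 3 was not tested. The mean of inputs 1 and 2 over input 3, in summed level, was 5.55 for gut, 5.62 for oenocyte, 6.37 for accessory gland, 6.43 for seminal fluid, 6.73 for testis and 8.93 for flight muscle genes. It was 1.88 for ovary genes, from sums of only 3.75, 4.04 and 2.07 and with 0 members at the count minimum. For ejaculatory duct and bulb genes it was 1.19, where EbpIII made up most of the sum and Dup99B and EbpII were low in input 3. Counts outside rRNA were 5864723, 7852065 and 8182107, and their part in these differences was not tested.

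By chromosome, the median level of protein-coding genes at 1 or more was alike on the large arms and higher on chromosome 4, the small heterochromatic chromosome. The median was 9.75 ± 0.726 on 2L, 10.6 ± 0.324 on 2R, 10.6 ± 0.537 on 3L and 9.96 ± 0.638 on 3R. On X, which is a single copy in males and transcribed at a raised rate there, it was 10.9, 12.0 and 11.4, and its ratio to chromosomes 2 and 3 was 1.07, 1.12 and 1.2. On chromosome 4 it was 31.2, 29.3 and 36.1, a ratio of 3.06, 2.73 and 3.78, and 77 of 79 genes reached a level of 1.

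**Figure D5:**
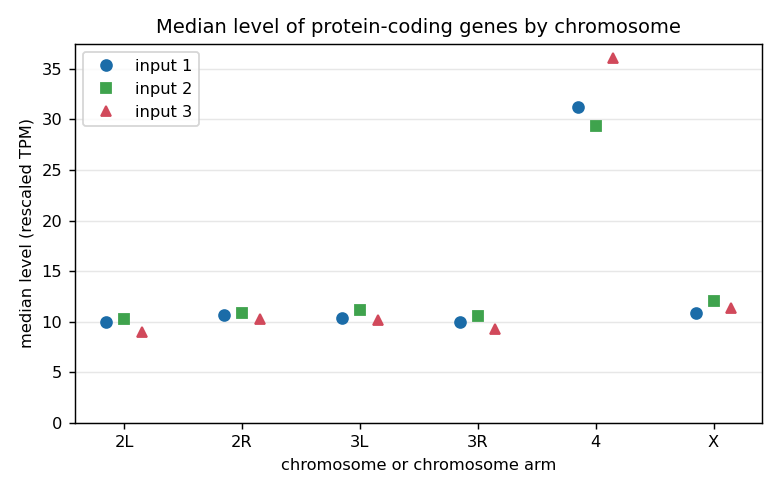
Median level of protein-coding genes with a mean of 1 or more by chromosome arm in inputs 1, 2 and 3, as rescaled TPM on an axis from 0. Chromosome 4 lies at 29.3 to 36.1 and the other arms at 8.94 to 12.0 in every library.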

How the data were processed

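RNA of 3 input libraries of adult heads, depleted of rRNA with antisense DNA oligonucleotides and a heat-stable RNase H, was analysed. The tools in the submitters' processing notes are Trim Galore (0.4.5), the aligner STAR (2.5.4b), then RSEM (1.2.30) and DESeq2 (1.20.0), with the genome build dm6. Neither the release of the annotation nor how strand was set is given there. The authors deposited 17453 genes in each library with an expected count, a TPM value, a length and an effective length, per the file headers. The expected count divides reads that match several genes, and 95.5% of the deposited expected counts were exactly whole. The deposited TPM is relative to all genes, rRNA included. The posterior SD of the count and the posterior mean TPM were used as deposited, and each mean fragment length was derived from lengths.

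Here 117 genes with rRNA in the symbol were removed, 17336 were left, and TPM was rescaled to a sum of 1000000. An Ensembl annotation of the same build gave names, biotypes and coordinates for 17179 IDs by gene and 197 by transcript, and 77 had none. Differences were taken on log2(level + 0.5) between 1 library and the mean of the other 2, over genes with a mean of 50 or more expected counts, and called past 2-fold. With 1 group there was no test. The calculation was tested on simulated data (Python 3.11.15, pandas 2.3.3). The TMM factors used in 1 alternative came from edgeR 4.0.16 in R 4.3.3. The members and the 28 gene lists were chosen with earlier results of these data known, and 4 more lists after their values were seen. Genes are named by a rule: the 20 highest mRNAs, the 3 highest members of each list and those at 0, the 5 lowest and 5 highest in each library against the others, and the clock, sex-biased, reference and Zn72D lists; other named genes, among them the minor rhodopsins, the rare testis genes and the paralogs, were chosen after their values were seen. Alternatives were other denominators, units, filters, pseudocounts, scalings and left-out libraries.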

Additional observations from a re-analysis of the deposited data

How the results depend on the processing

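No paired analysis was possible because the 3 inputs form 1 group and no test was made. The share of the pool in the 100 most abundant mRNAs, 10.3%, was 28.3% with protein-coding genes alone as the pool, 22.2% in CPM, 11.1% without genes under 200 bases, 20.9% without 7SL RNA, 11.2% in input 3 alone and 9.93% to 10.7% with each library left out. The count of 4801 genes at a level of 10 or more was 9448 at 1, 11660 above 0 and 4871 to 5254 with each library left out. The lowest Spearman's rho, 0.891, was 0.858 over genes at a mean level of 10 or more and 0.873 with the posterior mean TPM. It was 0.937 without a filter, 0.937 in CPM and 0.891 to 0.965 with each library left out.

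The counts of 2-fold differences moved with the count minimum. Lower in input 3 were 571 genes, 2233 with no minimum, 103 at 200 counts and 571 to 585 against a single other library. Higher in input 3 were 93 genes, 383 with no minimum, 48 at 200 counts and 96 to 105 against a single library. For input 1, 397 were higher (1369 with no minimum, 82 at 200 counts, 15 to 571 against a single library) and 20 lower (251, 9, 10 to 96, and 11 relative to the median of all genes). For input 2, 355 were higher (1227, 82, 10 to 585) and 25 lower (284, 10, 15 to 105). Of 52 levels of lists and genes, 47 moved by over 1 SD in CPM, 16 without short genes, 1 with the posterior mean TPM and 40 in input 3 alone. Leaving out 1 of 3 libraries cannot move a mean by 1 SD, so it is no check of these levels. The posterior mean, input 3 alone, the removal of 7SL RNA and the median centring were chosen after seeing the data.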

Other observations

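Of the 571 genes at least 2-fold lower in input 3, 559 were protein-coding. Among those, 351 (62.8%) were known by a CG number only, against 31.7% of the protein-coding genes compared, and 48 (8.59%) lay on X, against 16.9%. None lay on chromosome 4, which held few of the genes compared, 74 in all. The median level of the set was 9.03, against 16.2 over all genes compared. Of the 93 genes at least 2-fold higher, 83 were protein-coding, 30 (36.1%) had a CG number only and 15 (18.1%) lay on X. These shares describe the libraries and carry no test.

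Y-linked protein-coding genes were low in the heads: 2 of 20 reached a mean level of 1.

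Of the counted members, 2 of 67 oxidative phosphorylation and 1 of 21 V-ATPase genes were 2-fold lower in input 3, against 7.33% of all genes counted. These shares lay below that of all genes and do not set the lists apart. The low members may also have passed the count minimum only through inputs 1 and 2. The low members were COX4L, a relative of a cytochrome c oxidase subunit, at 31.9, 31.1 and 3.5, COX6AL2 at 9.97, 11.1 and 1.34 and Vha68-3, a relative of a V-ATPase subunit, at 7.84, 10.3 and 2.54. COX4 was at 340, 346 and 401 and Vha68-1 at 115, 114 and 151. Other paralogs of these lists were not low: COX7AL2 was at 57.3, 49.3 and 57.2 and VhaAC45RP at 43.7, 47.1 and 42.2.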
